A study of Rattus norvegicus with 3 samples.

Results

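The podocyte and slit diaphragm genes of the rat kidney were examined as 8 genes, Nphs1, Kirrel1, Cd2ap, Magi2, Podxl, Ptpro, Synpo and Wt1, out of 26785 genes and unnamed transcripts on the array. They were found through the RefSeq accession that the array design gives each probe, which led to 12 probes on 21 spots of each array. The kidneys came from male Sprague-Dawley rats that drank water with 200 ppm GABA (gamma-aminobutyric acid; group G200) and from control rats without GABA, compared on 3 Agilent arrays with 2 colours. Per the labels each group held 3 rats, aged 5 weeks on arrival (the study's methods give a larger number per group), and 3 weeks of GABA followed 1 week of acclimation on a standard diet. The control was labelled green (Cy3) and G200 red (Cy5) each time, so a dye effect and the effect of GABA cannot be told apart. The labels call the tissue a non-tumor region of the kidney and do not say how much cortex or medulla each piece held.

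Podocytes are the epithelial cells that cover the capillaries of the glomerulus, and glomeruli lie in the cortex alone. Their interlocking foot processes are bridged by the slit diaphragm, a cell junction built from nephrin and related proteins that filters plasma together with the basement membrane. Apart from Cd2ap and Podxl, which other cells make too, these genes are expressed mainly in glomeruli. Their level in whole kidney RNA therefore depends on how much cortex a piece of tissue contains as well as on the state of the podocytes.

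Each array holds 42877 spots other than controls. In green, 25657, 26864 and 26723 of them were well above background on replicates 1, 2 and 3, and in red 27008, 24260 and 26151 were. The median net intensity (spot minus local background) was 35, 37 and 35.5 units in green and 54.5, 29.5 and 39 units in red. Red was therefore brightest on replicate 1 over the whole array, and the ratios below were normalized between the dyes for this. Positive log2 ratios stand for more signal in G200. Over 1126 probes with at least 5 spots, probe means differed less between arrays in green (median SD 0.037) than in red (0.179). Single replicate spots within an array had a median SD of 0.093 in green and 0.116 in red. These SDs of single spots cannot be set against those of probe means, since a mean averages out spot noise. Given the small differences between the green channels, the control was counted as 1 sample and G200 as 3. Counted so, a test of the ratio against 0 leaves out the spread between control rats. Nothing shows whether the control RNA was pooled.

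Only probes that stood well above background in at least 1 colour, the same one on each of the 3 arrays, were tested, with the brightest probe standing for its gene. Of the 8 podocyte genes 6 were tested, and Kirrel1 and Magi2 were not well above background in either colour on any array. In limma's test 0 of the 6 genes passed an adjusted p under 0.05 in either direction, against 37.5% of the 14181 genes tested (1630 higher and 3691 lower). At an unadjusted p under 0.05, 3 genes (Podxl, Ptpro and Wt1) were higher in G200 and none lower, where 17.2% of all genes were higher by this rule. When the channels were fitted separately by limma, 0 of the 6 genes passed with or without adjustment (4097 of all 14181 genes with it). The same held by the methods' test (336 of all genes) and by its form on the 3 ratios (2 of all genes). With limma's robust variance model 0 passed after adjustment (5369 of all genes) and 1 before it. For all genes, counts before adjustment under these tests are not given. In whole tissue, more podocytes and more RNA per podocyte cannot be told apart. The median log2 ratio of the 6 genes was 0.38, against -0.05 over all genes. By array it was 0.83, 0.11 and 0.26 on replicates 1, 2 and 3, where all genes had -0.07, -0.04 and -0.05. The ratio was highest on replicate 1 for 4 of the 6 genes (31.4% of all genes) and positive on all 3 arrays for 5 of the 6 (26.5% of all genes).

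**Figure D1:**
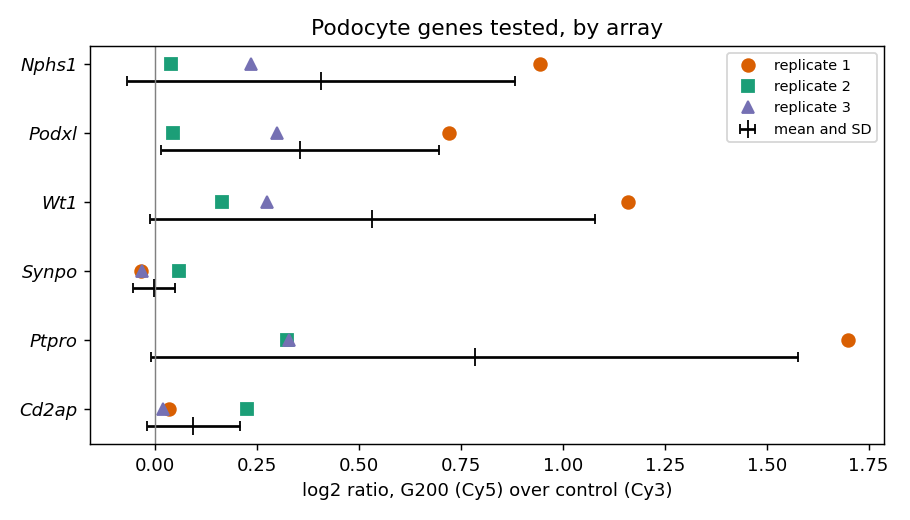
Log2 ratio of G200 over control (horizontal axis) for the 6 podocyte genes tested, with 1 symbol per array and a bar for the mean and SD of the 3 arrays. Replicate 1 stands to the right of the other arrays in Nphs1, Podxl, Wt1 and Ptpro, reaching 1.70 in Ptpro, and does not in Synpo and Cd2ap.

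The promoters of the 4 genes that were highest on replicate 1 are shown because these genes had the same array highest. RefSeq promoters on build GRCr8 were found for all 8 genes, each of 300 bases and written 5′ to 3′ along the gene. The promoter of Nphs1 is at chr1:94848011-94848310 (plus strand), that of Ptpro at chr4:171895261-171895560 (plus strand), that of Podxl at chr4:61149082-61149381 (minus strand) and that of Wt1 at chr3:112021759-112022058 (plus strand). Capitals mark matches on either strand to CANNTG (an E box), GCGTGGG (bound by zinc finger factors of the Egr and Wt1 kind), TGCTGAC (part of the Maf recognition element) and TAATTA (a homeodomain core).
Nphs1: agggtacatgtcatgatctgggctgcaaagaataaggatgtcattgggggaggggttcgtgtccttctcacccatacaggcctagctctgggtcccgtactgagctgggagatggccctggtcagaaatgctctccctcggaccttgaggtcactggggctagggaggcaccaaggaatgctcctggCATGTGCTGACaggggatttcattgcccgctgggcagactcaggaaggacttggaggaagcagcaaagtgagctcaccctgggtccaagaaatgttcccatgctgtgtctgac
Ptpro: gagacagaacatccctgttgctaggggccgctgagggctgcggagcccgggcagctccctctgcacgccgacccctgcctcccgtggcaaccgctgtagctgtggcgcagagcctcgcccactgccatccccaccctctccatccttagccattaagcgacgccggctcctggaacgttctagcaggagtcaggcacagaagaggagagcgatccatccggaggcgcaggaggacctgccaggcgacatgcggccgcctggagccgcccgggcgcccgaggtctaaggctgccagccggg
Podxl: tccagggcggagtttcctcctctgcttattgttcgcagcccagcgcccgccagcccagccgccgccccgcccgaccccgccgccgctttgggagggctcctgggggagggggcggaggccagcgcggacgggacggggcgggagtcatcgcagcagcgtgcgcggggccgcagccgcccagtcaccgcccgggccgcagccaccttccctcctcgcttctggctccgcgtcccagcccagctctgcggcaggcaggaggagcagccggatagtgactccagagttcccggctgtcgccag
Wt1: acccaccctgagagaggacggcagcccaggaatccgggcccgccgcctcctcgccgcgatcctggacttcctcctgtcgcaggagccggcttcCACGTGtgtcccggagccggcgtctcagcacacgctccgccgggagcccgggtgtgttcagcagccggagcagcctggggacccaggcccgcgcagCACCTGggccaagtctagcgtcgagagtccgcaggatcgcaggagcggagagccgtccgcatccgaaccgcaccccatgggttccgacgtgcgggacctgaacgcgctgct
The Nphs1 promoter held 1 match to CANNTG and 1 to TGCTGAC, which share 2 bases. The Wt1 promoter held 2 matches to CANNTG, and the promoters of Ptpro and Podxl held none of the 4 motifs. Of 33469 promoters of this length, 72.1% held CANNTG, 4.33% GCGTGGG, 4.44% TGCTGAC and 5.36% TAATTA. A match is a description, not a site or a cause.

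Nphs1 encodes nephrin, the adhesion protein that spans the slit diaphragm. Its net intensity in G200 was 176, 30.5 and 50.5 units on replicates 1, 2 and 3, and in the control 25, 34.5 and 29 units. The control stayed within 10 units over the arrays while G200 was high on replicate 1 alone. After normalization the log2 ratio was 0.94, 0.04 and 0.24, averaging 0.41 ± 0.48 (SD, n = 3; adjusted p = 0.104 from limma). A second, dimmer probe of Nphs1 gave 0.51, 0.01 and 0.18, the same order. Both probes are dim, and the background offset of 50 shrinks their ratios. With an offset of 0 the ratios of the brighter probe were 2.05, 0.10 and 0.61, and the deposited Feature Extraction ratio, which has no such offset, was 2.90, 0.81 and 1.26 (mean 1.66, adjusted p = 0.0369 from limma). Without replicate 1 the mean after loess was 0.14 (adjusted p = 0.335 from limma). Kirrel1, which encodes the nephrin-related protein Neph1, has 1 probe, whose net intensity was 14.5, 14 and 14 units in the control and 5, 8.5 and 12.5 units in G200, so no fold is given.

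Cd2ap encodes an adaptor that ties nephrin to the actin cytoskeleton and is also made in many other cells. Its net intensity was 91.5, 101 and 101.5 units in the control and 246.5, 161 and 191.5 units in G200. The log2 ratio was 0.04, 0.23 and 0.02, averaging 0.09 ± 0.11 (SD, n = 3; adjusted p = 0.345 from limma). Cd2ap was thus highest on replicate 2, and replicate 1 did not stand out. Magi2, a scaffold protein gene of the slit diaphragm, has 1 probe at 27, 26 and 20.5 units in the control and 7, 12.5 and 10 units in G200, not well above background in either.

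Podxl encodes podocalyxin, the charged sialoprotein of the foot process surface, which endothelial cells carry too. It is the best measured of these genes, with 10 spots on each array. Its net intensity was 589.25, 643 and 581 units in the control and 3073.25, 1041 and 1554.5 units in G200. The log2 ratio was 0.72, 0.05 and 0.30, averaging 0.36 ± 0.34 (SD, n = 3; adjusted p = 0.0739 from limma). The spots of replicate 1 ran from 0.63 to 0.86, those of replicate 2 from -0.13 to 0.20 and those of replicate 3 from 0.12 to 0.40. The spots of replicate 1 did not overlap with those of the other arrays. The SD of spots within an array (0.084 to 0.104) is technical and does not measure the variation between rats. Podxl was at 0.17 without replicate 1 (adjusted p = 0.246 from limma), at 0.38 without replicate 3 (0.206) and at 0.51 without replicate 2, where it passed the threshold (0.0382; 11.4% of all genes were called higher there).

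Ptpro encodes a receptor tyrosine phosphatase (GLEPP1) of the podocyte's apical membrane. Its net intensity was 74, 70.5 and 71.5 units in the control and 888.5, 120 and 178 units in G200. The log2 ratio was 1.70, 0.32 and 0.33, averaging 0.78 ± 0.79 (SD, n = 3; adjusted p = 0.0631 from limma). Replicate 1 was 3.25-fold above the control and the other arrays 1.25-fold and 1.26-fold, values that the offset of 50 shrinks. With an offset of 0 the log2 ratios were 2.17, 0.52 and 0.50, and the deposited ratio was 2.38, 0.71 and 0.64 (mean 1.24, adjusted p = 0.0576 from limma). The wide spread comes from replicate 1, and without it Ptpro passed the threshold at a smaller ratio of 0.33 (adjusted p = 0.0323 from limma; 6.12% of all genes were called higher there). It did not pass without replicate 2 (0.0776) or replicate 3 (0.102). A dimmer probe of Ptpro gave 0.80, 0.08 and 0.13, but its control was not well above background on replicate 1, so the 0.80 was taken against a control with only a bound.

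Synpo encodes synaptopodin, an actin-associated protein of foot processes. Its net intensity was 26, 26 and 28 units in the control and 23, 19 and 23 units in G200, where it was well above background on 1 array. The log2 ratio was -0.03, 0.06 and -0.03, averaging -0.002 ± 0.052 (SD, n = 3; adjusted p = 0.984 from limma). On replicates 2 and 3 the G200 signal was not well above background, so those ratios, and the order of the arrays for Synpo, rest on a bound. At this brightness the offset draws any ratio towards 0, and Synpo had no fixed direction over the settings run.

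Wt1 encodes the zinc finger transcription factor that adult podocytes keep expressing. Its brightest probe had a net intensity of 27.5, 31 and 25 units in the control and 247.5, 34 and 43.5 units in G200. The log2 ratio was 1.16, 0.16 and 0.28, averaging 0.53 ± 0.55 (SD, n = 3; adjusted p = 0.0709 from limma). As with Nphs1, the control hardly moved and G200 was high on replicate 1. The other 2 probes of Wt1 did not pass the filter, being above background only in G200 on replicate 3 for 1 of them. With an offset of 0 the mean was 1.16 (adjusted p = 0.0475 from limma) and with the deposited ratio 1.57 (adjusted p = 0.0297 from limma). Without replicate 1 it was 0.22 (adjusted p = 0.120 from limma), and the adjusted p was 0.0676 without replicate 2, 0.133 without replicate 3, 0.107 with median centring and 0.142 with the robust variance model.

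**Figure D2:**
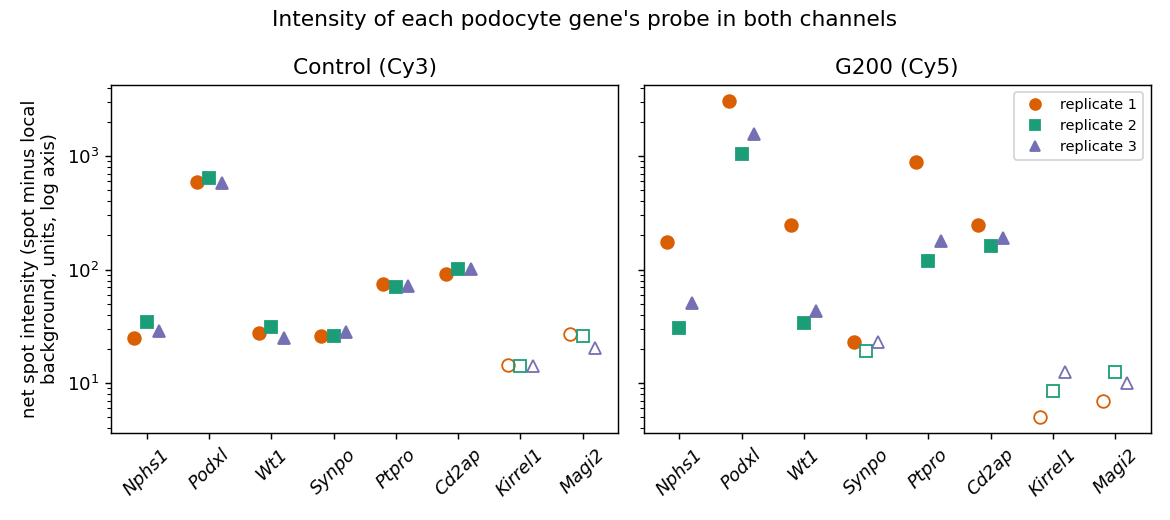
Net intensity (vertical log axis, units) of the probe of each podocyte gene in the control (left) and in G200 (right), 1 symbol per array, open where the probe was not well above background. The control values of each gene lie close together, and in G200 replicate 1 lies highest for Nphs1, Podxl, Wt1, Ptpro and Cd2ap before normalization between the dyes.

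How many of these genes were called differed with the scaling between the dyes. With median centring of each array, which moved the median of all genes from -0.05 to 0.27, 3 of 6 were called higher (Podxl, Ptpro and Cd2ap), against 34.9% of all genes tested. With no normalization between the dyes, where that median was 0.62, 5 of 6 were, against 56.5% of all genes. With the deposited ratio 2 were called (Nphs1 and Wt1; 15.1% of all genes), and with an offset of 0 Wt1 was (10.7% of all genes). The median of the 6 genes was 0.16 without replicate 1, less than the 0.38 over all arrays. In none of the settings run was a podocyte gene called lower, where 26.0% of all genes were in the main fit. Some settings could hardly give such a call. Without normalization 96.3% of the genes called were higher, and the methods' test in its form on the 3 ratios called 2 genes. Nphs1, Podxl, Wt1 and Ptpro had their highest ratio on replicate 1 under each of the background, filter and scaling settings run, while Cd2ap did so with median centring and with no normalization, and Synpo with no normalization. The share of higher genes among all called was 30.6% after loess, against 79.6% after median centring, 96.3% without normalization and 40.3% for the deposited ratio.

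**Figure D3:**
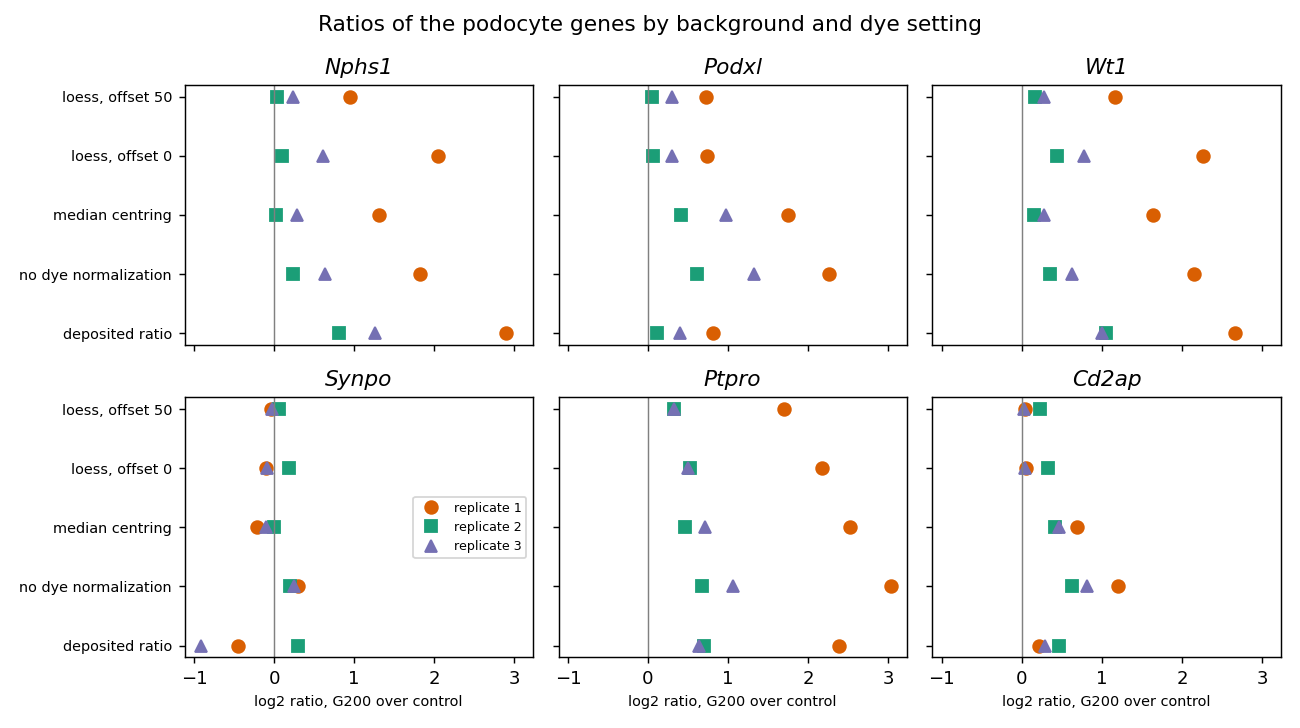
Log2 ratio of G200 over control (horizontal axis) of the 6 podocyte genes on each array under 5 settings of background and dye correction (rows in each panel). Replicate 1 is the highest of the arrays in Nphs1, Podxl, Wt1 and Ptpro in each row shown, and the size of its ratio in Nphs1 runs from 0.94 to 2.90.

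A wider list of 45 other genes of podocytes and the glomerular basement membrane was described beside them. Of these, 33 were tested, and 5 rose and 2 fell, where 1630 and 3691 of all 14181 genes did. The median log2 ratio was 0.19, -0.02 and 0.10 on replicates 1, 2 and 3. Nck1, an adaptor that binds phosphorylated nephrin, had 0.56, 0.14 and 0.36 and rose by 0.35 ± 0.21 (SD, n = 3; adjusted p = 0.0307 from limma). Tjp1, the tight junction protein gene ZO-1, had 0.51, 0.12 and 0.35 (adjusted p = 0.0328 from limma). Arhgdia at 0.25 and Dag1 at 0.26 also rose and are named after their values were seen. These calls were close to the threshold. Nck1 and Tjp1 did not pass without replicate 1 (adjusted p = 0.103 and 0.115 from limma) or without replicate 3 (0.152 and 0.167), and Arhgdia and Dag1 lost their calls whichever array was left out (Arhgdia 0.0662, 0.0541 and 0.192, Dag1 0.141, 0.0760 and 0.113 without replicates 1, 2 and 3).

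Vegfa, the growth factor that podocytes supply to the glomerular endothelium and tubules make too, had ratios of -0.76, -0.49 and -1.16 and fell by 0.81 ± 0.33 (SD, n = 3; adjusted p = 0.00591 from limma), which became -0.069 with median centring and 0.28 with no normalization. Actn4, an actin crosslinker found in most cells, had -0.41, -0.20 and -0.36 (adjusted p = 0.0169 from limma) and turned to 0.36 with median centring and 0.72 with no normalization. After loess both were lower on all 3 arrays, and Actn4 did not pass without replicate 1 (adjusted p = 0.0604 from limma) or replicate 3 (0.125). Without replicate 1, and also without replicate 3, 1 of the 33 genes was called (3538 and 1575 of all 14181 genes). Picked after their values were seen, Pdpn (podoplanin) had 1.27, 0.17 and 0.22, and Clic5, a chloride channel family protein gene of foot processes, had 0.88, -0.05 and -0.05. Neither passed the test (adjusted p = 0.0876 and 0.303 from limma), and both were highest on replicate 1. This held for 19 of the 33 genes tested (31.4% of all genes), and the rest of the list had another array highest.

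**Figure D4:**
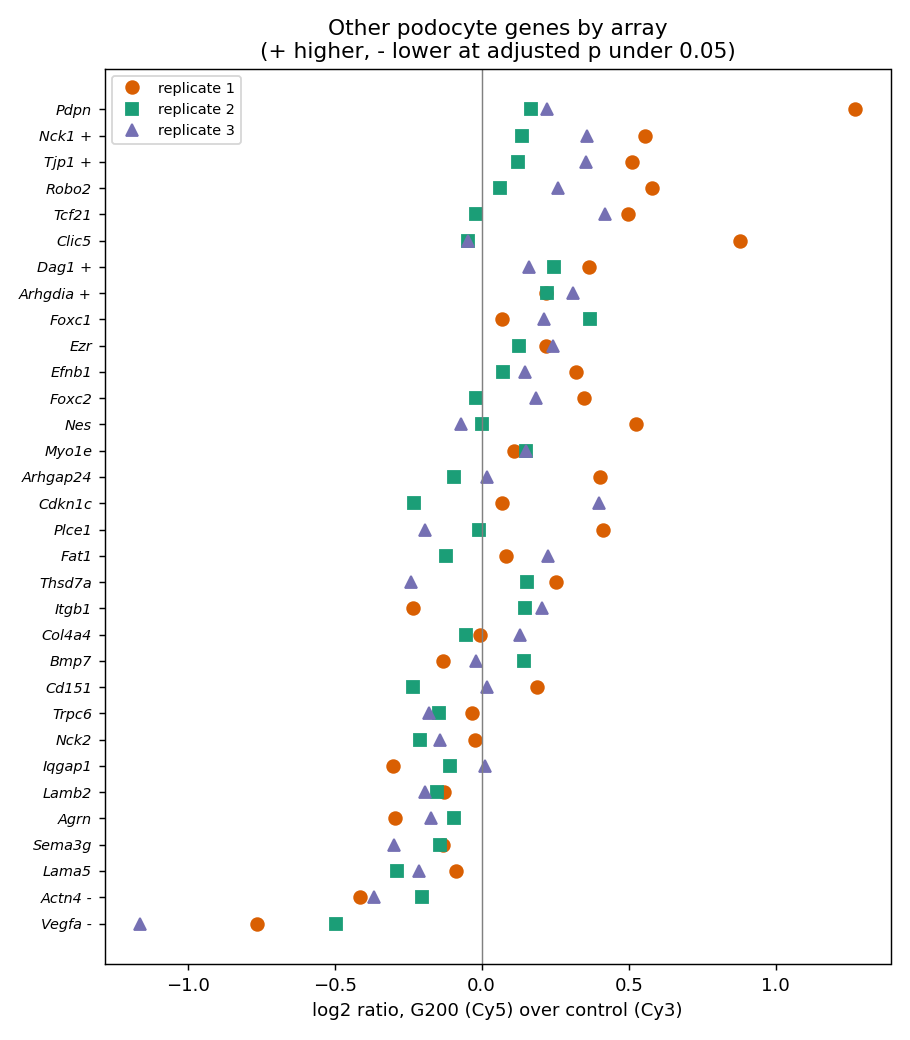
Log2 ratio of G200 over control (horizontal axis) of other podocyte genes tested, ordered by their mean, with 1 symbol per array. Genes marked + were higher and those marked - lower at an adjusted p under 0.05, and Pdpn and Clic5 show replicate 1 far to the right of the other arrays. Of the 33 genes tested, 19 had their highest ratio on replicate 1.

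The endothelium and mesangium are the other cells of the glomerular tuft. Of 10 endothelial genes tested 0 were called higher by limma (0 also at an unadjusted p under 0.05) and 2 lower (26.0% of all genes), with a median of -0.09, -0.09 and -0.13 on replicates 1, 2 and 3. Pecam1, an endothelial adhesion protein gene, had -0.61, -0.52 and -0.55 (adjusted p = 0.00233 from limma), and Plat, named after its values were seen, had -0.48, -0.50 and -0.53 (adjusted p = 0.00313 from limma). The highest endothelial mean was that of Emcn, at 0.14 (adjusted p = 0.154 from limma). Both falls turn to positive ratios with median centring, at 0.14 for Pecam1 and 0.21 for Plat. Of 8 mesangial genes 3 were higher and 1 lower, where 1630 of all 14181 genes were higher and 26.0% lower, with a median of 0.18, -0.02 and 0.15. Agtr1a, the angiotensin receptor gene, had 1.01, 0.30 and 0.93 (adjusted p = 0.0108 from limma), and Cspg4 had -0.46, -0.28 and -0.23 (adjusted p = 0.0192 from limma), which turned to 0.15 with median centring. Agtr1a did not pass without replicate 3 (adjusted p = 0.0827 from limma), nor did Cspg4 without replicate 1 (0.0759) or replicate 3 (0.0863). Whether podocyte genes differ from these lists was not tested.

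Genes of the cortical tubules were set beside the podocyte genes, since cortex holds both. Of 15 genes of the convoluted proximal tubule, 13 were tested, with 3 higher (1630 of all 14181 genes) and 3 lower (26.0% of all genes) and a median of 0.35, -0.20 and -0.15 on replicates 1, 2 and 3. Slc5a2, the glucose transporter of the early proximal tubule, had 1.59, 0.16 and 0.22, averaging 0.66 ± 0.81 (SD, n = 3; adjusted p = 0.106 from limma). Slc2a2, the basolateral glucose transporter that liver expresses as well, had -0.87, -0.58 and -1.60 (adjusted p = 0.00912 from limma). It did not pass with median centring, at -0.44 (adjusted p = 0.127 from limma), or with no normalization, at -0.083 (adjusted p = 0.777 from limma). The summed normalized intensity of the list, led by its brightest gene Miox (named after its values were seen), was 75039, 64929 and 68690 units in the control and 66188, 58142 and 63007 units in G200. This was 0.882, 0.895 and 0.917 times the control on replicates 1, 2 and 3, so the sum does not follow the median. Slc6a19 and Slc34a3 were not past the filter on dim probes.

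Of 9 genes of the distal convoluted tubule, 4 were tested, with 1 higher (1630 of all 14181 genes) and 0 lower in limma (0 lower also at an unadjusted p under 0.05) and a median of 0.54, 0.11 and 0.07. Slc12a3, the thiazide-sensitive cotransporter gene that defines this segment, was named after its values were seen and had 1.23, -0.004 and -0.20 (adjusted p = 0.341 from limma). Fxyd2, a sodium pump subunit gene and the brightest of the list, rose with 0.89, 0.38 and 0.75 (adjusted p = 0.00597 from limma; 0.0565 without replicate 3), and Wnk1 had a mean of 0.04. The summed intensity was 10206, 9669 and 9985 units in the control and 18826, 12470 and 16353 units in G200, which is 1.84, 1.29 and 1.64 times the control. Fxyd2 led this sum, at a mean log2 intensity of 13.18 in the control, where the next brightest gene tested, Slc12a3, had 8.16. The sum thus mostly follows Fxyd2 and does not stand for the list. Calb1, Pvalb and Wnk4 were not past the filter.

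Lists of other segments were described in the same way, beside 1630 higher genes and 26.0% lower of all 14181 genes. The straight proximal tubule of the outer medulla (7 tested, 1 higher) had a median of 0.03, 0.17 and 0.17, with Mep1a highest at 0.59 (adjusted p = 0.00281 from limma) and Ggt1 lowest at -0.08. The thick ascending limb (10 tested, 4 higher and 2 lower) had 0.13, 0.0001 and 0.16, with Umod highest at 0.87 (adjusted p = 0.0010 from limma). In this limb 8 of 10 genes were highest on replicate 1, against 31.4% of all genes. The count was 7 of 13 in the convoluted and 1 of 7 in the straight proximal tubule, and 2 of 8 in the inner medulla. It was 3 of 4 in the distal convoluted tubule, 5 of 9 in principal cells and 5 of 8 in mesangium. In endothelium it was 5 of 10, and in the other podocyte genes 19 of 33. The principal cells (9 tested, 0 called by limma) had 0.24, 0.12 and -0.05, with Avpr2 at 0.21 and Aqp2 at -0.30. At an unadjusted p under 0.05, 3 of the 9 passed (2 higher and 1 lower), where 6959 of all 14181 genes did in either direction. The inner medulla list (8 tested, 4 lower against 26.0% of all genes, and 0 higher by limma, 0 higher also without adjustment) had -0.21, -0.23 and -0.05. S100a6 was its lowest gene, at -0.95, -0.41 and -0.78 (adjusted p = 0.00553 from limma), and Akr1b1 its highest, at a mean of 0.07. Slc14a2, the urea transporter gene of the inner medullary collecting duct, was named after its values were seen and had -1.17, -0.45 and -0.30 (adjusted p = 0.0279 from limma). This call did not hold with the mean of its 2 probes, at -0.34 (adjusted p = 0.0613 from limma), nor without replicate 2 (adjusted p = 0.0617) or replicate 3 (adjusted p = 0.0557), and without replicate 1 the mean was -0.37 (adjusted p = 0.0219). Without replicate 3 the call of S100a6 was lost as well (adjusted p = 0.0526 from limma). Slc14a2 was lowest on replicate 1, where Slc5a2, Slc12a3 and Ptpro were highest. The summed intensity of the inner medulla list, whose brightest gene is Cryab, was 24779, 24532 and 26413 units in the control and 19155, 20210 and 25409 units in G200, or 0.773, 0.824 and 0.962 times the control, with Bdkrb2 not past the filter. S100a6, Aqp2 and Slc14a2 turned positive with median centring.

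**Figure D5:**
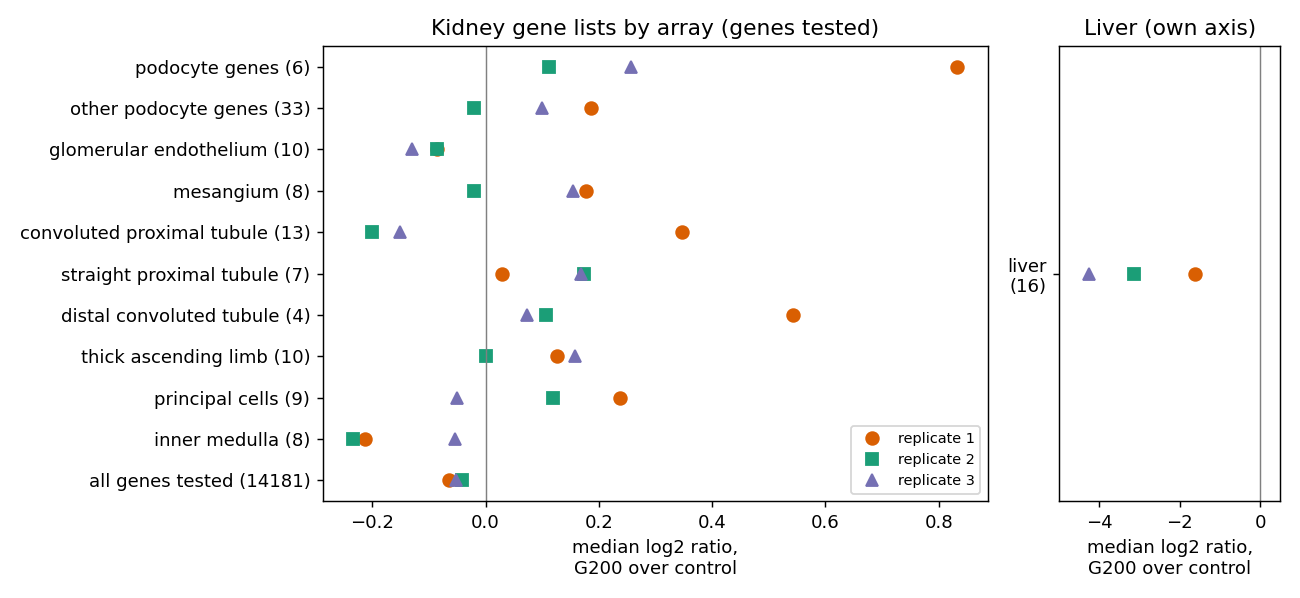
Median log2 ratio of G200 over control (horizontal axis) of each gene list on each array, with the number of genes tested in brackets and liver on an axis of its own. Replicate 1 stands to the right of the other arrays in the podocyte genes (0.83), the other podocyte genes (0.19), mesangium (0.18), the convoluted proximal tubule (0.35), the distal convoluted tubule (0.54), principal cells (0.24) and liver (-1.62), and all genes tested lie between -0.07 and -0.04.

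Replicate 1 thus had the highest ratio of 4 of 6 podocyte genes. The share of cortex in each piece of tissue was not measured, and its part in the podocyte ratios was not tested. Genes of the liver list also differed by array, with the highest ratio on replicate 1 in 16 of 16. Of its 18 genes 16 were tested, and 16 were lower (26.0% of all genes), with a median of -1.62, -3.14 and -4.25 on replicates 1, 2 and 3. Apoc1 was the lowest, at a mean of -4.05 (adjusted p = 0.00384 from limma), and Apoh the least low, at -1.97 (adjusted p = 0.0116 from limma; 0.0585 without replicate 2 and 0.0512 without replicate 3). With the robust variance model neither passed (Apoc1 0.0635 and Apoh 0.113, adjusted p from limma), and with median centring Apoh did not (0.0682). The summed intensity of the liver list was 163468, 191200 and 197004 units in the control and 48147, 21239 and 8500 units in G200. This was 0.295, 0.111 and 0.0431 times the control. The brightest gene was Alb in the control and Tf in G200, and Cps1 and Tat were not past the filter. The part of these transcripts in the podocyte ratios was not tested.

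The genes nearest to Nphs1 over the 3 log2 ratios (Euclidean distance, among the genes with a symbol) were Igfbp2 at a distance of 0.092, RT1-S3 at 0.129, Actg1 at 0.170, Gpx3 at 0.179 and Acy1 at 0.206. Igfbp2, which encodes an insulin-like growth factor binding protein, had ratios of 1.00, 0.07 and 0.17. Of these genes Gpx3, the secreted glutathione peroxidase of proximal tubule cells, passed the test, at 0.92, 0.21 and 0.27 (adjusted p = 0.0468 from limma). It did not pass without replicate 1, 2 or 3 (adjusted p = 0.0894, 0.0570 and 0.108 from limma), with an offset of 0 (0.0501), with both colours required above background (0.0521), with the robust variance model (0.0548) or with the channels fitted separately (0.130). The distances are a description over 3 arrays.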

How the data were processed

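The members and the gene lists were chosen with earlier results of these data known. Per the file headers the authors scanned the arrays with Feature Extraction 11.5.1.1 (the submitters' processing notes name version 9.3.2.1) and deposited median spot and background intensity in both colours, uncorrected, together with a log10 ratio of red over green. All 3 arrays were on 1 slide and read in 1 scan.

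From the deposited intensity values, limma 3.58.1 in R 4.3.3 corrected the background (normexp on all 44254 spots, offset 50) and normalized the dyes by loess within each array, with 1224 positive and 153 negative control spots left out. Outlier spots (635, 736 and 945) were left out and replicate spots averaged, and 15649 of 30367 probes were kept. No spot was saturated. Accessions were named through the RefSeq table of GRCr8 (8909 of 14181 genes tested). Coordinates of probes are on an older build and are not given. Signals near background and the number of arrays limit the precision.

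A two-sided test of the mean log2 ratio against 0 was made with lmFit and eBayes, and p-values were adjusted by Benjamini-Hochberg across every gene tested. The array pairs both channels. For the fits on separate channels the mean intensities were first brought to the same distribution on each array. Alternatives changed the background correction, dye normalization, filters, probe rule and test, or left out 1 array. Named genes were the 8 podocyte genes, the 3 highest and 3 lowest of the other podocyte genes past the threshold, the highest and lowest mean of each other list, and the 5 genes nearest to Nphs1. The brightest genes of lists that this leaves out (Miox, Cryab and Tf, of which Tf is brightest in G200 only) were chosen after their values were seen. Some genes that the rule names are not reported here.

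The tests were tried on simulated ratios. In the first simulation, drawn with the SD of each gene over the 3 arrays, limma recovered fewer of the changed genes than the limit set for it. That limit was then applied to a second simulation, added after this was seen and drawn with limma's moderated SD, a model that favours limma. There it was met, and false calls were a larger share of calls than the nominal rate. A gene that misses the threshold may thus still differ, and a gene that passes it may be a false call more often than the adjusted p states.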

Additional observations from a re-analysis of the deposited data

How the results depend on the processing

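The counts of genes called differed with the scaling between the dyes, the test and the arrays left in, and the cause was not tested. Of the podocyte genes tested, 3 were called higher with median centring (34.9% of all genes), 5 with no normalization (56.5%), 2 with the deposited ratio (15.1%) and 1 with an offset of 0 (10.7%), and leaving out an array gave 0 to 1. Their median log2 ratio was 0.97 with no normalization and 0.84 with the deposited ratio, and 0.16 without replicate 1, against 0.38 with all arrays (0.55 without replicate 2 and 0.44 without replicate 3). The number of all genes called was 8315 with no normalization, 336 by the methods' test on the 2 channels and 2 by its form on the 3 ratios, and 1575 (without replicate 3) to 4977 (without replicate 2) with an array left out, or 3538 without replicate 1. Without the pairing of channels (no replicate block) 4097 genes were called, 0 of them podocyte genes. Of the 33 other podocyte genes tested, 17 were called with median centring (6224 of all 14181 genes) and 27 with no normalization (8315). With the deposited ratio 4 were called (5324 of all genes), and without the replicate block 1 was (4097). The methods' test and its form on ratios called 0 and 0 (336 and 2 of all genes). In the main fit limma called 5 higher and 2 lower (1630 and 3691 of all genes). At an unadjusted p under 0.05 in that fit, 16 passed (6959 of all genes). With an array left out 1 to 6 were called (1575 to 4977 of all genes).

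Log2 ratios that changed sign with median centring were Actn4 at 0.36, Pecam1 at 0.14, Cspg4 at 0.15, Ggt1 at 0.70, Aqp2 at 0.56, S100a6 at 0.088, Plat at 0.21, Slc14a2 at 0.020 and Miox at 0.64. With no normalization they were Synpo at 0.25, Vegfa at 0.28, Actn4 at 0.72, Pecam1 at 0.49, Cspg4 at 0.51, Ggt1 at 1.05, Aqp2 at 0.91, S100a6 at 0.44, Plat at 0.56, Slc14a2 at 0.37 and Miox at 1.00. With an array left out, the sign changed within the range of Synpo (-0.032 to 0.014), Ggt1 (-0.16 to 0.052), Wnk1 (-0.0060 to 0.074), Akr1b1 (-0.021 to 0.22), Clic5 (-0.045 to 0.42), Slc12a3 (-0.10 to 0.61) and Cryab (-0.11 to 0.14). For the podocyte genes, 79 of 95 values under an alternative kept direction and side of the threshold, 13 passed it newly and 3 changed sign. For the other named genes these were 426, 24 and 25 of 576, and 101 no longer passed. The slide was not run as a block because all arrays were on 1 slide. Signal over background kept Kirrel1 and Magi2 from being tested and limits Nphs1, Wt1 and Synpo, whose control probes had net intensities between 25 and 34.5 units.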
